A study of Mus musculus with 2 samples.

Results

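The Polycomb repressive complexes are described here through 10 of their genes in Dicer_KO mouse embryonic stem cells (mESCs): Ezh1, Ezh2, Eed, Suz12, Jarid2 and Mtf2 of PRC2, and Ring1, Rnf2, Pcgf6 and Cbx7 of PRC1. They were taken by name, through their Ensembl identifiers, from the 43629 genes listed for each library. Both libraries came from mESCs with the genotype Dicer knockout on the 129/Ola background, replicate 1 at passage 7 and replicate 2 at passage 4. Per the study's methods, the cells were derived from the E14TG2a line with paired CRISPR/Cas9 guides, and single sorted cells gave lines with 1 of 2 deletions, Δ23 or Δ13, in Dicer. The labels do not name the deletion carried by each library, so a difference between the libraries cannot be divided among line, passage and library preparation. WT libraries were not analysed here, and the data therefore give levels and the spread between Dicer_KO libraries, not a response to the loss of DICER.

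Polycomb proteins keep developmental genes silent while a cell is pluripotent or committed to another fate. PRC2 methylates lysine 27 of histone H3. Its catalytic subunit is EZH2 or EZH1, EED and SUZ12 are required for activity, and accessory subunits such as JARID2 and MTF2 help to bring it to CpG-rich DNA. PRC1 places ubiquitin on histone H2A through RING1 or RNF2, each bound to 1 PCGF protein, and CBX proteins of canonical PRC1 bind the mark that PRC2 leaves. In mESCs, CBX7 is the best known of these readers, and PCGF6 belongs to a variant PRC1 that also holds MGA and L3MBTL2. DICER cuts the precursors of microRNAs (miRNAs), the small RNAs that pair through their seed (bases 2 to 8) with the 3′ UTRs of mRNAs.

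The libraries held 41710122 and 41566184 counts on genes, so that 3 counts corresponded to 0.0719 and 0.0722 CPM (counts per 1 M counts on genes). Dicer1 itself had 1343 counts in replicate 1 and 1510 in replicate 2. These are counts over the whole gene, exons outside the deletions included, and with no WT library they do not check the genotype. The cells carried the markers of mESCs: the 8 genes Pou5f1, Sox2, Nanog, Zfp42, Esrrb, Dppa5a, Tdgf1 and Utf1 summed to 9499 CPM in replicate 1 and 6068 CPM in replicate 2. Dppa5a alone gave 4792 and 2041 CPM of these sums, and the other 7 summed to 4707 and 4027 CPM. The summed level was 33.8 and 23.5 CPM for 8 fibroblast markers and 91.4 and 82.3 CPM for 8 primitive endoderm markers. For 8 trophectoderm markers it was 470 CPM in replicate 1 against 90.3 CPM in replicate 2. Krt8 gave 192 and 33.0 CPM of these sums and Krt18 172 and 21.2 CPM. Of the trophectoderm markers with a mean count of 10 or more, 7 of 7 were more than 2-fold higher in replicate 1. The same held for 14.2% of all genes with such a mean. In bulk RNA, more cells of a type and more RNA per cell cannot be told apart.

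Because the cells lack DICER, the letters that miRNAs of mESCs would pair with were looked up in the longest annotated 3′ UTR of each component. Mature miRNAs of a cluster that is abundant in mESCs share 1 seed, in capitals (sequences from RefSeq, GRCm38.p6):
miR-291a-3p: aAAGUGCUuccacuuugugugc
miR-294-3p: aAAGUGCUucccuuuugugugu
miR-295-3p: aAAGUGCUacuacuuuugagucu
The complement of this seed, AGCACTT, was found in 14.9% of 20627 annotated 3′ UTRs and in that of 1 of the 10 components, Ezh1. The letters of miR-17-5p, GCACTTT, which overlap with it, occurred in 11.96% of 3′ UTRs and, among the components, in Ezh1 at 2 places and in Rnf2. The window of Ezh1 that holds both (chr11:101192002-101192026, GRCm38, minus strand) is shown with the complement of the first seed in capitals:
Ezh1: agagaacaaAGCACTTtaactctct

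Ezh2 had a short 3′ UTR, 402 bases against a median of 989 over all genes, and 4 matches to 3 other miRNAs in it. The mature sequences of these miRNAs are given with the seed in capitals:
let-7a-5p: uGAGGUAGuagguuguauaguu
miR-26a-5p: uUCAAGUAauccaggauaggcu
miR-101a-3p: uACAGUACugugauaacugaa
Of these, miR-101 and miR-26 are known regulators of EZH2 in other cells. The complement of the miR-101 seed, GTACTGT, was present in 9.56% of all 3′ UTRs. It occurred at 2 places in Ezh2 (chr6:47530467-47530491 and chr6:47530412-47530436, minus strand) and at 1 place in Eed (chr7:89954770-89954794, minus strand), and that of miR-26, TACTTGA, at 1 place in Ezh2 (chr6:47530278-47530302, minus strand):
Ezh2, miR-101, first place: gaaccttgaGTACTGTgggcaattt
Ezh2, miR-101, second place: atttgcaaaGTACTGTaacagtaat
Eed, miR-101: acattctttGTACTGTcttcctgct
Ezh2, miR-26: aataaagaaTACTTGAacttgttgt
The miR-26 letters were in 9.85% of 3′ UTRs and also in Suz12 and Jarid2, and those of let-7, CTACCTC, in 9.18% and only in Ezh2 among the components. The letters of miR-16-5p, TGCTGCT, were found in 20.6% of 3′ UTRs and in Ezh1, Suz12, Jarid2 and Cbx7. No match to these 6 sets of letters was found in Mtf2, Ring1 or Pcgf6. A match is a run of letters in the annotation, miRNAs were not measured in these libraries, and whether any of these mRNAs responds to the loss of miRNAs was not tested.

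The catalytic subunits of PRC2 differed between the libraries in opposite directions. Levels are given as counts and as CPM per kilobase of exon (RPKM), which allow genes to be compared. Ezh2 (ENSMUSG00000029687, chr6:47530139-47595341, minus strand) had 6605 counts in replicate 1 and 8604 in replicate 2, or 23.7 and 31.0 RPKM (27.4 ± 5.15, SD, n = 2). Ezh1 (ENSMUSG00000006920, chr11:101191115-101226463, minus strand) had 5476 and 3563 counts, or 17.6 and 11.5 RPKM (14.6 ± 4.33, SD, n = 2). Both levels of Ezh2 were thus above both levels of Ezh1. The log2 ratio of replicate 1 over replicate 2, after scaling by the trimmed mean of M values (TMM), was -0.50 for Ezh2 (95% counting interval -0.55 to -0.46) and 0.50 for Ezh1 (0.44 to 0.56). Within a library, where scaling cancels, the level of Ezh2 was 1.34 times that of Ezh1 in replicate 1 and 2.69 times in replicate 2, a mean log2 ratio of 0.93 ± 0.71 (SD, n = 2). Ezh1 gave 42.7% of the summed RPKM of the pair in replicate 1 and 27.1% in replicate 2.

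Per exon length, the core subunits that EZH2 and EZH1 share were not expressed at equal levels. Suz12 (ENSMUSG00000017548, chr11:79993106-80034123, plus strand) had 19078 and 20924 counts, 92.5 and 101.8 RPKM, the highest mean level of the 10 components per exon length (97.1 ± 6.58, SD, n = 2). A higher RPKM was found for 2.56% of the 17788 genes whose mean count was 10 or more. Eed (ENSMUSG00000030619, chr7:89954654-89980983, minus strand), whose protein binds trimethylated lysine 27 and activates the enzyme, had 6216 counts in replicate 1 and 10740 in replicate 2. These correspond to 38.9 and 67.5 RPKM (53.2 ± 20.2, SD, n = 2). Per longest transcript the libraries of the pair overlapped, with Suz12 at 105 and 115 RPKM and Eed at 72.1 and 125 RPKM. Eed was the component with the widest difference between the libraries, 1.88 times higher in replicate 2 (log2 ratio -0.91, interval -0.96 to -0.87), while Suz12 was 1.19 times higher there (-0.26, interval -0.28 to -0.23). An antisense gene, E230029C05Rik, overlaps 6.82% of the exon length of Eed. The labels call the protocol reverse-stranded, but whether counting used the strand is not given in the sources used here.

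Both accessory subunits were abundant. Mtf2 (ENSMUSG00000029267, chr5:108065674-108109004, plus strand), a Polycomb-like protein, had 21744 and 23148 counts, or 91.5 and 97.7 RPKM (94.6 ± 4.42, SD, n = 2). Jarid2 (ENSMUSG00000038518, chr13:44729474-44921643, plus strand), which has a demethylase fold without activity, had the most counts of the 10 components, 22686 in replicate 1 and 31606 in replicate 2. Spread over 9715 bases of exon, these gave 56.0 and 78.3 RPKM (67.1 ± 15.8, SD, n = 2). Jarid2 was 1.52 times higher in replicate 2 (log2 ratio -0.60, interval -0.63 to -0.58) and Mtf2 1.16 times (-0.21, interval -0.24 to -0.19).

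Of the E3 ligases of PRC1, Rnf2 (RING1B) made up nearly the whole pair. Rnf2 (ENSMUSG00000026484, chr1:151458004-151500955, minus strand) had 6888 and 8039 counts, or 40.0 and 46.9 RPKM (43.4 ± 4.84, SD, n = 2). Ring1 (ENSMUSG00000024325, chr17:34020792-34024680, minus strand) had 540 and 344 counts, or 3.99 and 2.55 RPKM (3.27 ± 1.02, SD, n = 2), the lowest level of the 10. Rnf2 exceeded Ring1 by 10.02-fold in replicate 1 and 18.4-fold in replicate 2, a mean log2 ratio of 3.76 ± 0.62 (SD, n = 2), and Ring1 gave 9.07% and 5.16% of the summed RPKM. The libraries again differed in opposite directions, with a log2 ratio of 0.53 for Ring1 (interval 0.33 to 0.73) and -0.35 for Rnf2 (-0.39 to -0.30).

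Pcgf6 (ENSMUSG00000025050, chr19:47033617-47050906, minus strand) had 3190 and 3624 counts, or 15.2 and 17.3 RPKM (16.3 ± 1.51, SD, n = 2), with a log2 ratio of -0.31 (interval -0.38 to -0.24). Among the 6 PCGF genes, which decide the kind of PRC1 that a RING protein enters, it gave 26.5% of the summed RPKM in replicate 1 and 29.9% in replicate 2. Pcgf2 (MEL18), a subunit of canonical PRC1, gave 29.6% and 27.4%. The log2 ratio of Pcgf6 over Pcgf2 was -0.16 in replicate 1 and 0.13 in replicate 2, so neither gene was above the other in both libraries. In contrast, Pcgf6 was above each of the other PCGF genes in both libraries. Its mean log2 ratio over Pcgf3, of a variant PRC1, was 0.46 ± 0.15 (SD, n = 2), but with coding length in place of exon length the order of the pair turned (-1.02). It was 1.07 ± 0.20 over Bmi1 (PCGF4), 2.14 ± 0.71 over Pcgf1 and 3.60 ± 0.61 over Pcgf5.

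Cbx7 (ENSMUSG00000053411, chr15:79915807-79971119, minus strand) had 10994 counts in replicate 1 and 6849 in replicate 2, or 40.6 and 25.4 RPKM (33.0 ± 10.8, SD, n = 2), with a log2 ratio of 0.56 (interval 0.52 to 0.60). Its level was above those of 3 related readers, Cbx6, Cbx2 and Cbx8, in both libraries. The mean log2 ratio of the RPKM values was 1.34 ± 0.0456 (SD, n = 2) over Cbx6, 2.12 ± 0.25 over Cbx2 and 5.59 ± 0.53 over Cbx8, which is better known from differentiated cells. Relative to Cbx6, Cbx7 stood at 2.59-fold in replicate 1 and 2.47-fold in replicate 2, so this ratio was close in both libraries while the RPKM of Cbx7 was not.

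Ordered by mean RPKM, the components ran from Suz12 and Mtf2 through Jarid2, Eed, Rnf2, Cbx7, Ezh2, Pcgf6 and Ezh1 to Ring1. The levels of 3 of the 9 neighbouring pairs did not overlap: both libraries of Mtf2 were above both of Jarid2, both of Ezh2 above both of Pcgf6, and both of Ezh1 above both of Ring1. In the other 6 pairs the libraries overlapped and the order is not resolved. It also depends on the length by which counts are divided. Per coding length, Mtf2 (303 RPKM) and Cbx7 (284 RPKM) came first, followed by Suz12 (216 RPKM). By this length Ezh2 (70.8 and 92.5 RPKM) and Pcgf6 (72.2 and 82.3 RPKM) overlapped. Ring1 was last by each of the 3 lengths tried, at 3.27 RPKM per exon length, 4.16 per longest transcript and 8.71 per coding length.

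**Figure D1:**
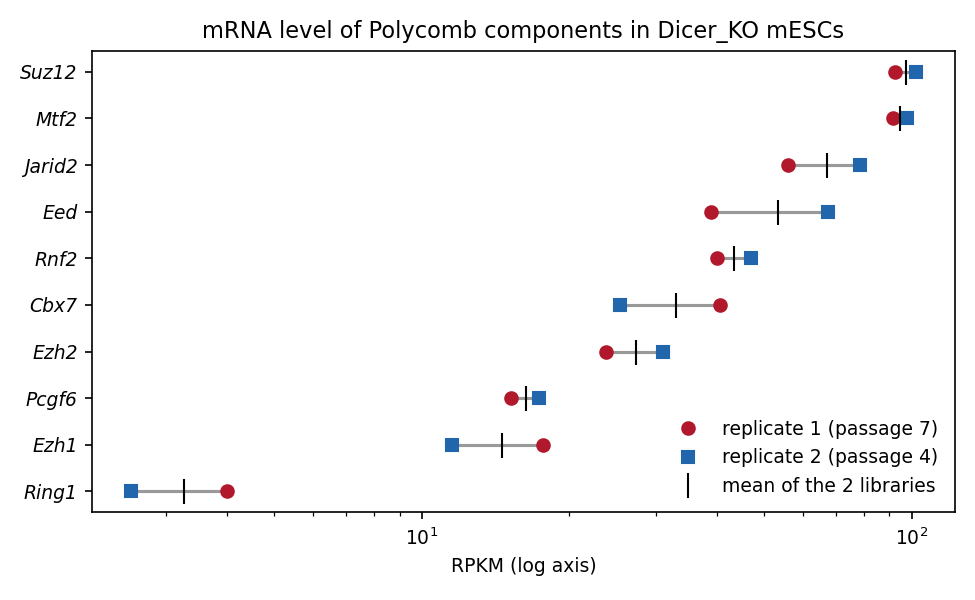
RPKM (log axis) of the 10 components in replicate 1 (red circles) and replicate 2 (blue squares), with a black tick at the mean of the 2 libraries and a grey line between them. Suz12 and Mtf2 lie between 91.5 and 101.8 RPKM, Ring1 lies below 4 RPKM, and Ezh1, Ring1 and Cbx7 have the red symbol on the right.

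None of the 10 components differed by more than 2-fold between the Dicer_KO libraries, where 21.4% of all genes tested did (14.2% higher in replicate 1 and 7.14% higher in replicate 2). The comparison asks how far the components varied between the Dicer_KO libraries, with 1 library on each side and therefore no replicate check and no p-value. All 10 had a mean count of 10 or more and entered it. The size of their log2 ratios ran from 0.21 to 0.91 with a median of 0.50. Over all 17788 genes, many with fewer counts than any component, the median was 0.45 and the upper quartile 0.89. A stricter minimum mean of 100 counts, which every component passed, left 13005 genes. Their median was 0.37 and their upper quartile 0.69, so the median of the components lay above the first and below the second. The share of 21.4% beyond 2-fold refers to all genes tested, low counts included. Counting intervals excluded a ratio of 1 for 3 components higher in replicate 1 and 7 higher in replicate 2, as they did for 37.8% and 35.4% of all genes. At this depth an interval says only that counting error is smaller than the difference between 2 libraries. The median ratio of the components was -0.28 against 0.02 for all genes tested. When the libraries were scaled by their totals instead, the latter was 0.14, and the direction of each of the 10 components stayed as it was.

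Direction among the components went with base composition. The 3 components higher in replicate 1 had the highest GC content of the 10, 51.2% in Ezh1, 56.4% in Cbx7 and 56.9% in Ring1, and the 7 higher in replicate 2 ranged from 38.2% (Mtf2) to 48.8% (Jarid2). The same trend ran through all genes. Across 17637 genes, which are not independent replicates, the log2 ratio and GC content of the longest transcript had a Spearman rho of 0.26 and a Pearson r of 0.24. The median log2 ratio was -0.24 in the lowest of 10 equal bins of genes by GC content and 0.32 in the highest. After a linear regression of the ratios on GC content and length over all genes, which was chosen after seeing the data, the median of the components was near 0. Eed (-0.85), Jarid2 (-0.65) and Ezh2 (-0.33) remained lower in replicate 1. Ezh1 (0.39), Ring1 (0.24) and Cbx7 (0.24) remained higher, at smaller values. The differences of Suz12 (-0.0038) and Rnf2 (0.0034) were close to 0, Pcgf6 came to -0.14 and Mtf2 changed its sign to 0.17.

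**Figure D2:**
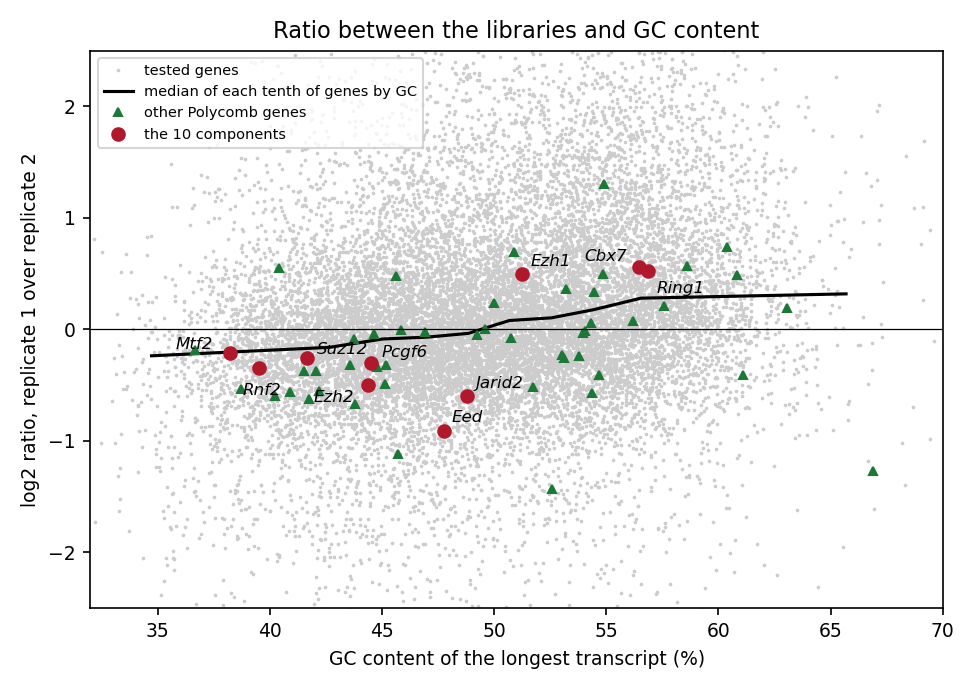
Log2 ratio of replicate 1 over replicate 2 against the GC content of the longest transcript for the genes tested (grey), the other Polycomb genes (green triangles) and the 10 components (red circles), the black line joining the medians of genes grouped by GC content into 10 equal bins. The axes leave out genes beyond 2.5 or outside 32 to 70% GC. The 3 components above 50% GC lie above 0 and the other 7 below it.

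Cbx7 also shared its difference with its chromosome. The median log2 ratio of the other genes tested on chromosome 15 was 0.59, and medians of the other autosomes ran from -0.08 on chromosome 18 to 0.08 on chromosome 7. Relative to its chromosome, Cbx7 stood at -0.033. Other Polycomb genes of chromosome 15 were Cbx6 (log2 ratio 0.50), Yaf2 (0.48), a partner of RING proteins, and L3mbtl2 (-0.41), which was lower in replicate 1. Relative to the chromosome, Cbx6 stood at -0.10, Yaf2 at -0.12 and L3mbtl2 at -1.01. For the other 9 components the chromosome moved the ratio by 0.08 or less. Copy number was not measured in these data.

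**Figure D3:**
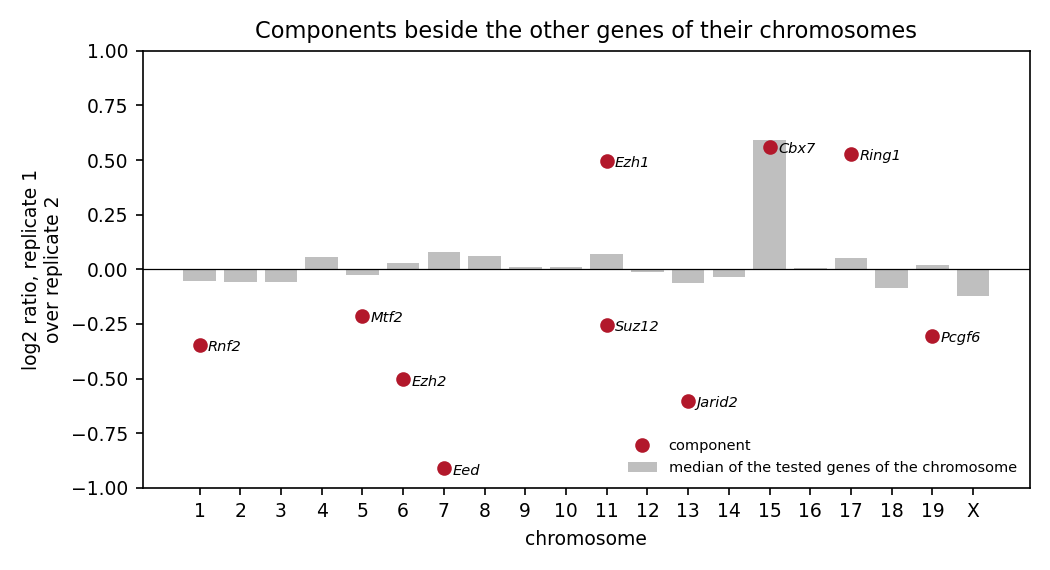
Median log2 ratio of replicate 1 over replicate 2 for the genes tested on each chromosome (grey bars) and the log2 ratio of each component on its chromosome (red points). Cbx7 sits at the height of the bar of chromosome 15, 0.59, and the other points lie away from bars that stay near 0.

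The other 48 Polycomb genes all passed the same minimum, and 5 of them differed by more than 2-fold, where 21.4% of all genes tested did. Of the 5, 2 were higher in replicate 1 (14.2% of all genes) and 3 higher in replicate 2 (7.14%). The median log2 ratio of the 48 was -0.09, and -0.15 after the regression on GC content and length. These lists were fixed with earlier results of these data known and their counts are a description. Cbx8 had 168 counts in replicate 1 against 62 in replicate 2 (log2 ratio 1.30, interval 0.89 to 1.76). Of the genes higher in replicate 2, Kdm2b, whose protein brings the PCGF1 complex to unmethylated CpG islands, had 2230 counts in replicate 1 and 5538 in replicate 2 (-1.43, interval -1.51 to -1.36). Epop, an accessory factor of PRC2, had 2358 and 5232 counts (-1.27, interval -1.34 to -1.20), and Asxl3 of the PR-DUB deubiquitinase had 125 and 250 (-1.12, interval -1.44 to -0.81). Epop has a GC content of 66.9%, Kdm2b of 52.6%, and both were further from 0 after the regression on GC content and length (-1.93 and -1.60). Of the 26 genes above the median GC content, 14 were higher in replicate 1, and of the 22 at or below it, 3 were. Over all genes tested, the shares were 61.5% above the median GC content and 41.3% at or below it.

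Among the other PRC2 genes, Rbbp7, a histone-binding subunit, had the highest level (109 ± 4.16 RPKM, SD, n = 2) and Lcorl the lowest (1.48 ± 0.0523). In PRC1 they were Skp1a (156 ± 16.9) and Cbx8 (0.751 ± 0.488), and in PR-DUB Hcfc1 (57.0 ± 12.6) and Asxl3 (0.290 ± 0.137). The other partners that accompany PCGF6, Mga and L3mbtl2, had 28.4 ± 6.08 and 35.6 ± 5.14 RPKM. Some of these, Skp1a and Hcfc1 among them, also serve complexes other than Polycomb.

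The 12 genes of opposing marks, H3K27 demethylases and trithorax-type genes, were compared between the libraries in the same way. None passed 2-fold, where 21.4% of all genes tested did. Of the 12, 2 had a ratio above 0 and 10 below, against 9129 and 8659 of the 17788 genes tested. The median was -0.30, against 0.02 for all genes tested. After the regression on GC content and length, the median of the 12 was -0.38. Dpy30, a subunit common to the H3K4 methyltransferases, had both the highest level (116 ± 36.5 RPKM, SD, n = 2) and the widest ratio (-0.77), and Ash1l had the lowest level (8.65 ± 0.846 RPKM, SD, n = 2). Kdm6a was at -0.43 and Kdm6b at 0.11.

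Genes that Polycomb is known to keep silent in mESCs were low in both libraries. Of 60 developmental regulators, 51 were under 1 RPKM in both, and 2 (Olig2 and Evx2) had no count, which by the limit of 3 counts allows up to 0.0719 and 0.0722 CPM. The 60 together summed to 107 CPM in replicate 1 and 83.9 CPM in replicate 2. Of the 30 that passed the minimum, 10 were more than 2-fold higher in replicate 1 and 4 more than 2-fold higher in replicate 2. Over all genes tested, 14.2% and 7.14% were. The median log2 ratio of the 30 was 0.50, against 0.02 for all genes tested. The filter kept genes through whichever library was higher, so the counts of 10 and 4 are not a share of the list. Hand1, a factor of trophoblast and heart, had 229 counts in replicate 1 and 15 in replicate 2 (3.73). It was followed by Pax9 with 39 and 5 (2.63), Irx3 with 26 and 4 (2.33), Tbx15 with 106 and 19 (2.30) and Dlx6 with 23 and 6 (1.67). In the other direction, Nkx2-9 had 5 and 41 counts (-2.93), En1 8 and 28 (-1.81), Wt1 146 and 440 (-1.71) and Evx1, of the primitive streak, 128 and 379 (-1.68).

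All trophectoderm markers tested were higher in replicate 1. Their list shares Hand1, Eomes and Cdx2 with the developmental regulators, so the lists are not independent. The list of 8 ran from 1.02 (Eomes) to 3.73 (Hand1) in the 7 tested, with Krt18 at 7162 and 880 counts and Krt8 at 8004 and 1370. Relative to the median of chromosome 15, where both keratin genes lie, Krt18 stood at 2.31 and Krt8 at 1.83. Cdx2, which defines the lineage, had 6 and 1 counts. Leaving out the developmental regulators that stand in a marker list left 53, of which 25 were tested, with a median of 0.37. Beyond 2-fold, 7 were higher in replicate 1 (14.2% of all genes tested) and 4 higher in replicate 2 (7.14%). The same filter chose these 25, so their counts are not a share of the 53. After the regression on GC content and length, the median of the 30 was 0.35.

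At the Ink4/Arf locus, a target of CBX7 and PRC2 that restrains the cell cycle, both genes were higher in replicate 1. Cdkn2a had 847 and 283 counts (log2 ratio 1.46, interval 1.26 to 1.66), or 20.3 and 6.81 CPM, and Cdkn2b had 371 and 179 counts (0.93, interval 0.67 to 1.19). Cdkn2a was beyond 2-fold, as were 14.2% of all genes tested in this direction, and Cdkn2b was not. Of all genes tested, 8.29% had a higher ratio than Cdkn2a and 15.5% a higher ratio than Cdkn2b. The regression on GC content and length left 1.10 for Cdkn2a and 0.71 for Cdkn2b. With 2 libraries no relation between these genes and the level of any component can be tested.

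**Figure D4:**
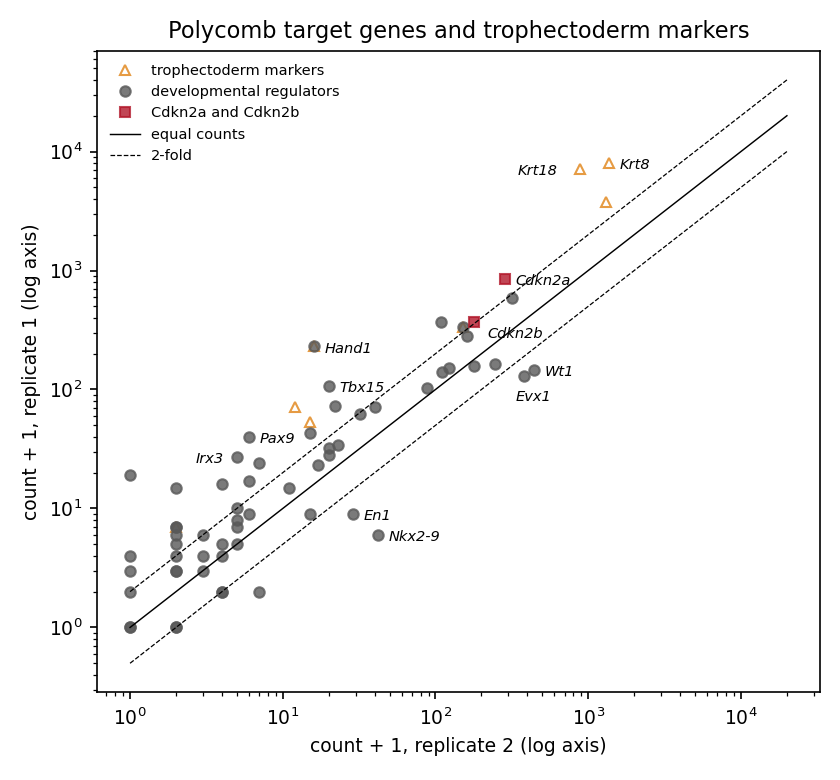
Counts plus 1 in replicate 1 against replicate 2 (log axes) for 59 developmental regulators (grey circles), 8 trophectoderm markers (open orange triangles) and Cdkn2a and Cdkn2b (red squares), with lines for equal counts and 2-fold before scaling. Hand1 and the keratin genes lie far above the lines, and Wt1, Evx1 and Nkx2-9 lie below.

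RefSeq held 12 promoter windows for the 10 genes, from 250 bases before to 50 after the start, with a median GC content of 63.5% and a median of 27 CpG, against 52.7% and 7 over 32851 windows. The exception was 1 of the 2 windows of Mtf2, with 45.7% GC and 2 CpG. Of 8 sets of letters searched on both strands, those of E2F, the factor family of the G1/S transition, were found in 2 components, which are shown with the letters in capitals:
Ezh2: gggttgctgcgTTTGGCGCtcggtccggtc
Suz12: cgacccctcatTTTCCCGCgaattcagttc
The window of Ezh2 is at chr6:47595009-47595038 on the minus strand and that of Suz12 at chr11:79992876-79992905 on the plus strand (GRCm38.p6). TTTGGCGC occurred in 0.514% and TTTCCCGC in 1.07% of all windows, and TTTGGCGG, in 0.560% of them, in none of the components. The other letters were CCAAT, in 7 of the 12 windows and 37.4% of all, GGGCGG, in 8 and 35.7%, TATAAA, in 1 and 13.6%, GCGCATGC (NRF1), in 0 and 2.71%, and CCGGAAG (ETS), in 0 and 8.86%. Binding of these factors was not measured.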

How the data were processed

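Adapters and low-quality ends were removed by the authors with Trimmomatic, and STAR (version 2.4.2a, per the submitters' processing notes) aligned the reads to mm10 (GRCm38), with many alignments per read permitted. The authors then used featureCounts (version 1.4.5-p1) on the Ensembl annotation without reads in overlapping regions, and deposited the raw count of each gene, with no normalization. The setting of featureCounts for such multiply aligned reads is not given in the sources used here. Totals were 41710122 and 41566184 counts.

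Both libraries form 1 group, so no test was run. CPM were divided by the exon length of GENCODE M21 (GRCm38), in which 1081 listed genes had no entry. Ratios between the libraries used edgeR (version 4.0.16) under R 4.3.3 for TMM factors (1.04 and 0.960), a pseudocount of 1 and a minimum mean count of 10, which 17788 genes passed. Intervals are exact conditional binomial intervals at 95% and cover counting error only, since PCR copies are not independent molecules. The labels do not say that the libraries are separate cultures beyond their passage. The deletion of each library was left unassigned.

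Components and lists were chosen with earlier results of these data known. The text names all 10 components, paralogs of them, Dicer1, the highest and lowest gene of each Polycomb list per length and, of the other lists, up to 5 genes in each direction beyond 2-fold. Other genes (chromosome 15 members, partners of Pcgf6, Kdm6a, Kdm6b, and single markers) were named after their values were seen. Single genes that enter the counts of a list are not all reported here. Seed complements were searched in the longest annotated 3′ UTR of each gene, on the transcript strand. No annotated transcript of another gene matched a component at 95% identity over at least 100 bases, except the overlapping neighbours of Eed (E230029C05Rik), Suz12 (Gm26563) and Mtf2 (Tmed5). The scaling, the ratios and the counting intervals were tested on simulated data, which held no trend by GC content or chromosome. The other steps were not tested in this way. Alternatives were total counts, DESeq2 size factors (version 1.42.0), raw counts, a pseudocount of 0.1, other folds and filters, other lengths, the chromosome median and, chosen after seeing the data, a regression on GC content and length and the chromosome median for counts of genes.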

Additional observations from a re-analysis of the deposited data

How the results depend on the processing

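No paired analysis was possible because the design has 1 group only. Of 60 recomputed log2 ratios of the components, 26 stayed inside the counting interval, 31 moved beyond it with the same sign and 3 changed sign: Mtf2 (0.17) and Rnf2 (0.0034) under the regression on GC content and length, and Cbx7 (-0.033) relative to its chromosome. At a threshold of 1.5-fold, 2 components (Eed and Jarid2), 10 other Polycomb genes and 1 gene of opposing marks (Dpy30) passed, and at 4-fold 0 other Polycomb genes and 5 developmental regulators did. With a mean of at least 100 counts, 5 developmental regulators passed 2-fold, and with no filter 28. Dividing by coding length gave a log2 ratio of 4.38 for Rnf2 over Ring1 and -1.02 for Pcgf6 over Pcgf3. The ratio of Pcgf6 over Pcgf2 turned positive with the longest transcript (0.31) and with coding length (0.45), and ran from -0.16 to 0.13 when each library was left out.

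The cause of the changes in the ratios of the components was not tested. With 2 libraries, leaving 1 out moves a mean by less than the SD by construction and says nothing of stability, and ratios between the libraries cannot be computed without 1 of them. Ratios of list genes with few counts, such as Pax9, Irx3 and Nkx2-9, have wide counting intervals. Whether GC content, trophectoderm-like RNA, line or passage sets the differences was not tested.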
